A study of Mus musculus with 2 samples.

Results

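A set of 9 genes of the B lineage were examined on the mRNA arrays of circKcnt2-/- and WT group 3 innate lymphoid cells (ILC3s), lymphocytes that act without rearranged antigen receptors. They were taken by gene symbol from the 19505 named genes of the table. Of these 9 genes, 4 belong to antibody-secreting cells (Jchain, Mzb1, Derl3 and Prdm1) and 5 to B cells (Cd79a, Cd79b, Pax5, Ms4a1 and Blnk). The set was chosen by symbol with the levels and differences of these genes on the same arrays already known, so the values below describe the measurements that chose them and support nothing beyond that.

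The circKcnt2-/- cells came from mice in which CRISPR-Cas9 had removed an intronic complementary sequence needed to close the circular RNA circKcnt2. The WT cells came from wild-type mice. Both groups of mice, on a C57BL/6 background, had received dextran sodium sulfate (DSS), which injures the colon lining and causes colitis. From both, cells negative for lineage markers, high for CD90 and low for CD45 were sorted as ILC3s, and 1 array was made per genotype. The labels give neither age nor the number of mice behind an array, and the methods describe the DSS-treated mice of the study in general as young adults. No value here checks the genotype, because the deletion lay in an intron and a probe set for linear Kcnt2 mRNA would not read it. With 1 array per genotype a difference has no replicate check, and no p-value is given.

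B cells recognise antigen through a surface immunoglobulin whose signal passes through the CD79A and CD79B chains. The transcription factor PAX5 holds B cell identity and activates many of the genes for this receptor and its signalling. When B cells become antibody-secreting cells, BLIMP-1 (the product of Prdm1) silences Pax5, and the cells expand the machinery that folds and exports antibody. In the intestinal wall most such cells make IgA, whose dimers are held together by the J chain. ILC3s are not known for these genes, and a lineage stain of the usual kind would remove B cells from the sorted population, although the methods name a commercial lineage cocktail without listing its antibodies.

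For 6 of the 9 genes the reference tables used here held the promoter, and these are printed as the 250 bases before the start of transcription (RefSeq, GRCm38.p6). They show which of the motifs searched lie at genes that were lower on the circKcnt2-/- array (Jchain, Derl3, Pax5 and Blnk), at 1 that was higher (Cd79a) and at 1 below background on both arrays (Prdm1). Each is given 5′ to 3′ on the strand of its gene, with motif matches on either strand in capitals. Jchain lies on the minus strand at chr5:88527898-88528147, Derl3 on the plus strand at chr10:75893148-75893397, Prdm1 on the minus strand at chr10:44458749-44458998, Pax5 on the minus strand at chr4:44710695-44710944, Cd79a on the plus strand at chr7:24897247-24897496 and Blnk on the minus strand at chr19:40994222-40994471.
Jchain: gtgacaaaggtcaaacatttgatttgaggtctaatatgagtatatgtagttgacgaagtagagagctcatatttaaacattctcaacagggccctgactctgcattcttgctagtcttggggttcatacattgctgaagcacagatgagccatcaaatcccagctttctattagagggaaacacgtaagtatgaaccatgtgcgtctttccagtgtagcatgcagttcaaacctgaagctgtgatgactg
Derl3: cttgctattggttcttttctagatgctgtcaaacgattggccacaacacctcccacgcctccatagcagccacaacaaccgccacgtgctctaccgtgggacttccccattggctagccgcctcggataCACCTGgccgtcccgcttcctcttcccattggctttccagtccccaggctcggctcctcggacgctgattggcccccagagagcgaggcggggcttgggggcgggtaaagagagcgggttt
Prdm1: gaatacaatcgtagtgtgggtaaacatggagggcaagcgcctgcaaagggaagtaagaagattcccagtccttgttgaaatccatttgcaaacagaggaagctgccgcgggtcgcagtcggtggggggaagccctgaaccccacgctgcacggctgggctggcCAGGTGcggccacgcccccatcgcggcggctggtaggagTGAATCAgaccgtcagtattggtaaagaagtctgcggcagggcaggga
Cd79a: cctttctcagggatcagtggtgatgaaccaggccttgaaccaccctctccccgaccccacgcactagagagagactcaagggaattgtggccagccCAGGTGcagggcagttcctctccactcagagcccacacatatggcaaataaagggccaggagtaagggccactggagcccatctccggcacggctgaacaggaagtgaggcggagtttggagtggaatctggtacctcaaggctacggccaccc
Pax5: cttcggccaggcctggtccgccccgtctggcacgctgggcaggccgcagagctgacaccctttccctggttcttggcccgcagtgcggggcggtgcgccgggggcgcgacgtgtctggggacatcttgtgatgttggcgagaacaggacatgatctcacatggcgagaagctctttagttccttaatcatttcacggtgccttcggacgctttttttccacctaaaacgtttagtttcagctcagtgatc
Blnk: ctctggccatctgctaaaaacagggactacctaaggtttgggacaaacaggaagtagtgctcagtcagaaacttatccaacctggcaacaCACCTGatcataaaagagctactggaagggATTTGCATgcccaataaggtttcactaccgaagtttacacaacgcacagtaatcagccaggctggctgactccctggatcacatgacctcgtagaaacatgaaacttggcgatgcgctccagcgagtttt

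The motifs searched were ATGCAAAT (the octamer read by OCT factors and their B cell coactivator), TGANTCA (read by AP-1 and BATF dimers), CCCNNGGG (the core of EBF1 sites), CAGGTG (an E-box of the E proteins) and TATAAA (the TATA box). The Blnk promoter held 1 octamer, printed in capitals as its reverse complement, a motif found in 1.60% of the 32851 promoters of the same length. The Prdm1 promoter held 1 TGANTCA match, a motif present in 6.75% of all promoters. The E-box was in 4 of the 6 promoters (Derl3, Prdm1, Cd79a and Blnk) and in 17.2% of all promoters, and no 2 of the matches overlapped. None of the 5 motifs was in the windows of Jchain and Pax5. None of the 6 windows held an exact CCCNNGGG or TATAAA, which are in 11.8% and 12.4% of all promoters. Only exact matches were searched, so an EBF1 site or a TATA box with a changed base would be missed. These matches are letters in a window and say nothing about binding.

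Expression is given as the RMA level, a log2 value per probe set in which a difference of 1 stands for 2-fold. All 9 genes were read by 1 probe set each. Background was taken as 2.73, the level that 95% of 1410 olfactory and vomeronasal receptor genes, silent in most lymphocytes, did not pass on either array. A gene above this level on at least 1 array was counted as above background, as 12502 of the 19505 named genes were (64.1%). By this level 6 of the 9 genes were above background and 3 (Mzb1, Prdm1 and Ms4a1) were below it on both arrays. Because probe sets of different genes differ in brightness, levels are not compared between genes, and a sum over a list, given below for some lists, is weighted towards its brightest probe sets.

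Among the genes of antibody-secreting cells, Jchain was much lower on the circKcnt2-/- array, Derl3 was slightly lower, and Mzb1 and Prdm1 were not measurable above background. Jchain, which encodes the joining chain of IgA and IgM, had a level of 4.30 on the circKcnt2-/- array and 6.72 on the WT array. It was thus above background on both, and 5.34-fold lower on the circKcnt2-/- array (log2 difference -2.42). Only 3 of the 12502 genes above background had a lower difference, and among the 500 genes nearest to Jchain in level the middle 95% of differences ran from -0.51 to 0.83.

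Derl3 encodes a derlin, part of the machinery that moves misfolded proteins out of the endoplasmic reticulum, and is strongly transcribed in secretory cells. Its level was 3.33 on the circKcnt2-/- array and 3.91 on the WT array, a difference of -0.58. This lay just short of 1.5-fold (1.497-fold) and inside the middle 95% of genes of like level, which ran from -0.82 to 0.89.

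Mzb1, an endoplasmic reticulum chaperone that helps to assemble antibody in marginal zone B cells and plasma cells, read 2.18 on the circKcnt2-/- array and 1.75 on the WT array. Prdm1, the gene of BLIMP-1, read 1.65 on the circKcnt2-/- array and 1.61 on the WT array. Neither reading passed background, so no fold is given for these 2 genes, and whether they differed was not detectable on these arrays. The chaperone gene and the regulator of antibody-secreting cells were thus below background on the WT array too, where Jchain was at its higher level. A reading below background does not show that a transcript was absent, and the sensitivity of these probe sets was not tested.

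Among the genes of B cells, both chains of the receptor's signalling pair were higher on the circKcnt2-/- array, while Pax5 and Blnk were lower. Cd79b, which encodes the Igβ chain, had a level of 4.87 on the circKcnt2-/- array and 3.91 on the WT array. It was 1.94-fold higher on the circKcnt2-/- array (difference 0.96), at percentile 97.4 of the 500 genes nearest in level, whose middle 95% ran from -0.62 to 0.95. Cd79a, for the partner chain Igα, had 4.47 on the circKcnt2-/- array and 3.90 on the WT array. The difference of 0.57 (1.48-fold) had the same direction as that of Cd79b but lay inside the range of like genes (-0.74 to 0.84).

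Pax5, the gene of the B cell identity factor, read 2.66 on the circKcnt2-/- array, which is below background, and 3.24 on the WT array. Set against the background level it was at least 1.42-fold lower on the circKcnt2-/- array, and its measured difference was -0.58, inside the range of like genes (-0.85 to 0.81). Blnk encodes the adaptor that ties the activated receptor to downstream enzymes. Its level was 3.13 on the circKcnt2-/- array and 3.47 on the WT array, which is 1.27-fold lower (difference -0.34, like genes from -0.84 to 0.87). Ms4a1, the gene of the surface protein CD20, read 2.42 on the circKcnt2-/- array and 2.36 on the WT array, and both readings were below background.

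**Figure D1:**
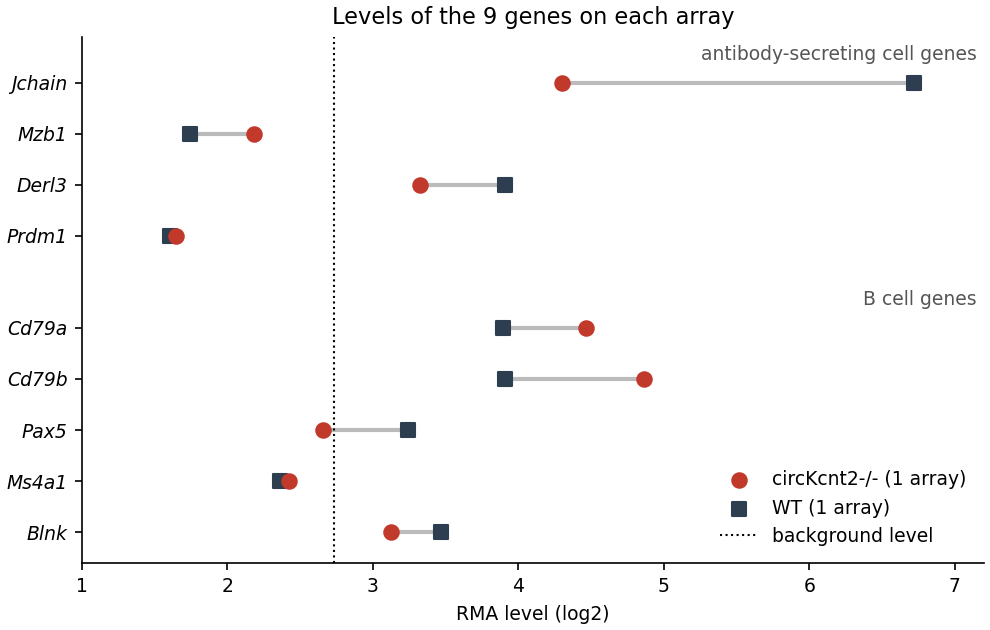
RMA levels (log2, horizontal axis) of the 9 genes on the circKcnt2-/- array (red circles) and the WT array (dark squares), with 1 array per genotype, so no error bar can be drawn, and the background level of 2.73 as a dotted line. Jchain shows the widest gap, with 4.30 on the circKcnt2-/- array and 6.72 on the WT array, and Mzb1, Prdm1 and Ms4a1 lie left of the background line on both arrays.

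At 1.5-fold or more, 1 of the 4 genes of antibody-secreting cells was lower (Jchain) and 0 were higher. Over all genes above background, 5.22% were lower and 7.66% were higher by this measure. Of the 5 B cell genes, 1 was higher (Cd79b) and 0 were lower, against the same shares over all genes. At 2-fold or more Jchain alone remained, lower on the circKcnt2-/- array, where the shares over all genes were 0.512% lower and 1.11% higher. These differences belong to the contrast by which the genes were chosen, and nothing is read from the counts. The same 1.5-fold shares stand beside the counts of the other lists below, and nothing is read from those counts either. Nearest to the 1.5-fold mark, a log2 difference of 0.58, lay Cd79b on the far side at 0.96, and on the near side Pax5 at -0.58, Derl3 at -0.58 and Cd79a at 0.57.

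The median difference was -0.27 over the 4 genes of antibody-secreting cells and 0.06 over the 5 B cell genes, against 0.06 over all genes above background and 0 over all named genes. Without Jchain the median of the remaining antibody-secreting cell genes was 0.04, so the negative median rested on that gene. Summed on the linear scale, the antibody-secreting cell genes reached 37.4 on the circKcnt2-/- array and 127 on the WT array, and the B cell genes 71.6 on the circKcnt2-/- array and 55.6 on the WT array. In a bulk sample of this kind, fewer cells that express a gene and less RNA of it per cell cannot be told apart.

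**Figure D2:**
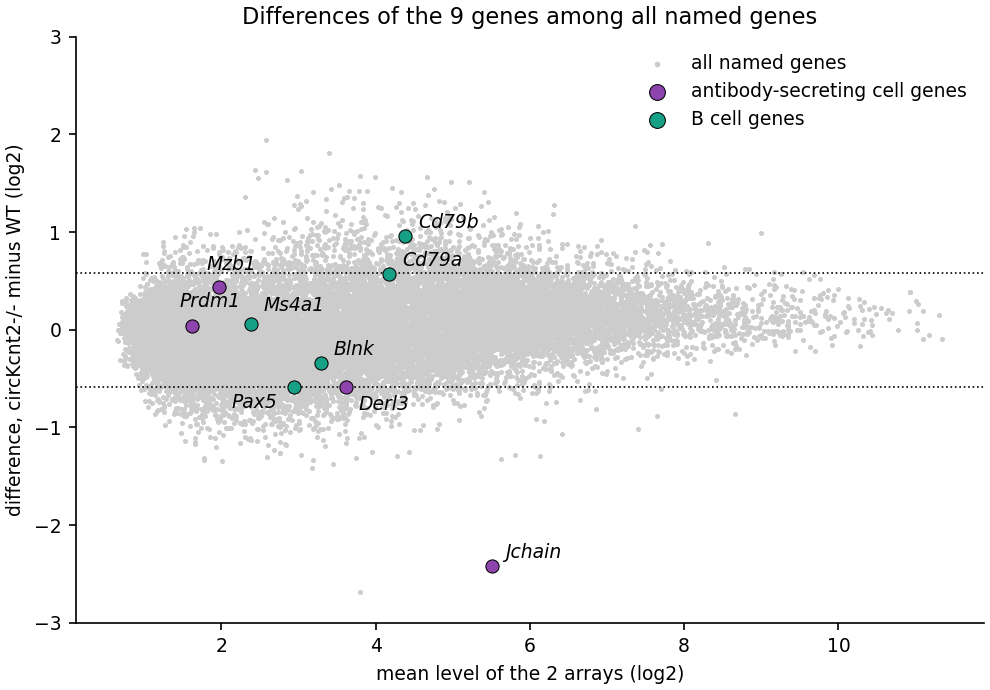
Difference between the circKcnt2-/- and WT arrays (log2, vertical axis) against the mean level of both arrays (log2, horizontal axis) for the 19505 named genes in grey, with the antibody-secreting cell genes in purple, the B cell genes in green and the 1.5-fold marks dotted. Jchain lies apart at -2.42 and Cd79b above the upper mark at 0.96, and 5 genes with differences beyond the vertical axis are not drawn.

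Control probe sets gave a measure of how far unspecific signal can reach. The 23 control probe sets matched for GC content ran from 0.74 to 5.91, and among the 9 genes Jchain alone, on the WT array, exceeded the highest of them. Of these controls, 15 were lower on the circKcnt2-/- array, by at most 0.33, and the median difference over all 23 was -0.12. Over the 5222 negative control probe sets, a separate group, the median difference had the other sign (0.05). The levels of Cd79a, Cd79b, Derl3, Pax5 and Blnk were between the general background and the brightest controls matched for GC content on both arrays or, for Pax5, on the WT array only.

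The immunoglobulin genes, the main product of antibody-secreting cells, were not analysed here, since 0 of them were among the named genes. Only probe sets with 1 symbol were named, and those with no symbol or several were not searched for immunoglobulin genes. Other genes of antibody-secreting cells were taken from a list of 17, of which 15 were measured and 11 were above background. Of these, 1 was at least 1.5-fold higher on the circKcnt2-/- array (Pim2, a survival kinase, with 4.52 on the circKcnt2-/- array and 3.84 on the WT array) and 0 were lower, and the median difference over the 15 was 0.02. Thus none of the 11 shared the direction of Jchain by as much as 1.5-fold.

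Regulators and surface markers of antibody-secreting cells that were above background on at least 1 array differed little between the arrays. Ccr10, a chemokine receptor of the list, was below background on both, with 1.61 on the circKcnt2-/- array and 2.61 on the WT array. Its measured difference of -1.01 was the lowest in the list, and no fold is given. Xbp1, the transcription factor that enlarges the secretory apparatus and is active in many cell types, had 7.31 on the circKcnt2-/- array and 7.29 on the WT array. Irf4, which drives plasma cell differentiation and also acts in T cells, had 3.24 on the circKcnt2-/- array and 3.66 on the WT array. Sdc1 (CD138), a surface proteoglycan of plasma cells and epithelium, had 2.84 on the circKcnt2-/- array and 3.06 on the WT array, near background on both. Tnfrsf17 (BCMA), a survival receptor of plasma cells, was below background at 2.51 on the circKcnt2-/- array and read 2.93 on the WT array, at least 1.15-fold lower. Among genes of the list above background, the largest differences after Pim2 were those of Tnfrsf17 (-0.42), Irf4 (-0.42) and Txndc5 (0.35), a disulfide isomerase of the endoplasmic reticulum.

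Derl3 was set beside the general folding and degradation genes of the endoplasmic reticulum, which all cells use. All 23 measured genes of this list were above background, 0 were 1.5-fold higher or lower, and their median difference was 0.02. Of the other derlins, Derl1 had 5.84 on the circKcnt2-/- array and 5.48 on the WT array, and Derl2 had 5.12 on the circKcnt2-/- array and 5.15 on the WT array. The chaperones Hspa5 (8.63 on the circKcnt2-/- array and 8.64 on the WT array) and Hsp90b1 (7.94 on the circKcnt2-/- array and 7.92 on the WT array) were nearly level. The widest differences in the list were 0.47 for Vcp, the ATPase that extracts proteins for degradation, -0.42 for Creld2, 0.39 for Ssr4 and -0.37 for Syvn1, a ubiquitin ligase of the same pathway.

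B cell surface and identity genes other than the members were mixed. Of 20 listed, 19 were measured and 15 were above background, with 1 at least 1.5-fold higher on the circKcnt2-/- array, 1 at least 1.5-fold lower and a median difference of -0.13. Cd180, a toll-like receptor homologue of B cells and myeloid cells, read 3.47 on the circKcnt2-/- array and, below background, 2.57 on the WT array, at least 1.67-fold higher. Vpreb2, a part of the surrogate light chain that pre-B cells use before a true light chain exists, had 3.38 on the circKcnt2-/- array and 4.28 on the WT array, 1.86-fold lower. Vpreb2 and Vpreb1 are near-identical copies, so their probe sets may share signal, and Vpreb1 was at least 1.28-fold lower. Fcer2a, the low-affinity IgE receptor CD23, had 4.25 on the circKcnt2-/- array and 4.81 on the WT array. Cd22, a receptor that restrains B cell signalling, was below background on both arrays (2.19 on the circKcnt2-/- array and 2.47 on the WT array).

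The transcription factors that act with PAX5 in B cells showed no difference of 1.5-fold. Of 13 measured, 11 were above background and the median difference was 0.08. Ebf1, which opens the B cell programme, had 3.49 on the circKcnt2-/- array and 3.68 on the WT array. Pou2af1, the gene of the B cell coactivator of OCT factors, had 3.99 on the circKcnt2-/- array and 3.92 on the WT array. Bach2 (0.56), Spi1 (-0.55), Irf8 (-0.44) and Ikzf3 (0.35) had the widest differences, and all of these act in other blood cells too.

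Genes known as targets of the factors among the members were listed as well. Of 6 measured genes that PAX5 activates in B cells, with Cd79a and Blnk among them, 0 were 1.5-fold higher or lower and the median difference was -0.03. Of 6 genes that BLIMP-1 represses in the B lineage, 5 were above background, 2 were at least 1.5-fold higher on the circKcnt2-/- array and 0 were lower, with a median difference of 0.28. The 2 were Myc, a driver of growth (7.77 on the circKcnt2-/- array and 6.97 on the WT array), and Id3, an inhibitor of E proteins (5.81 on the circKcnt2-/- array and 5.12 on the WT array). Both are transcribed in many lymphocytes, and Prdm1 itself was below background on both arrays.

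Downstream of CD79A and CD79B, 14 signalling genes were measured and 13 were above background. The exception to small differences was Pik3ap1 (BCAP), an adaptor that brings phosphoinositide 3-kinase to the receptor in B cells and to toll-like receptors in myeloid cells. It had 3.24 on the circKcnt2-/- array and 4.35 on the WT array, 2.15-fold lower. No gene of the list was 1.5-fold higher, the median difference was -0.10, and the next widest differences were -0.44 for Bcl10, 0.31 for Prkcb and -0.30 for Vav2, all of which also signal outside B cells. Of the 4 measured survival ligands and receptors of B cells (Tnfsf13b, Tnfrsf13b, Tnfrsf13c and Tnfrsf17), 0 differed by 1.5-fold and the median difference was -0.23.

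**Figure D3:**
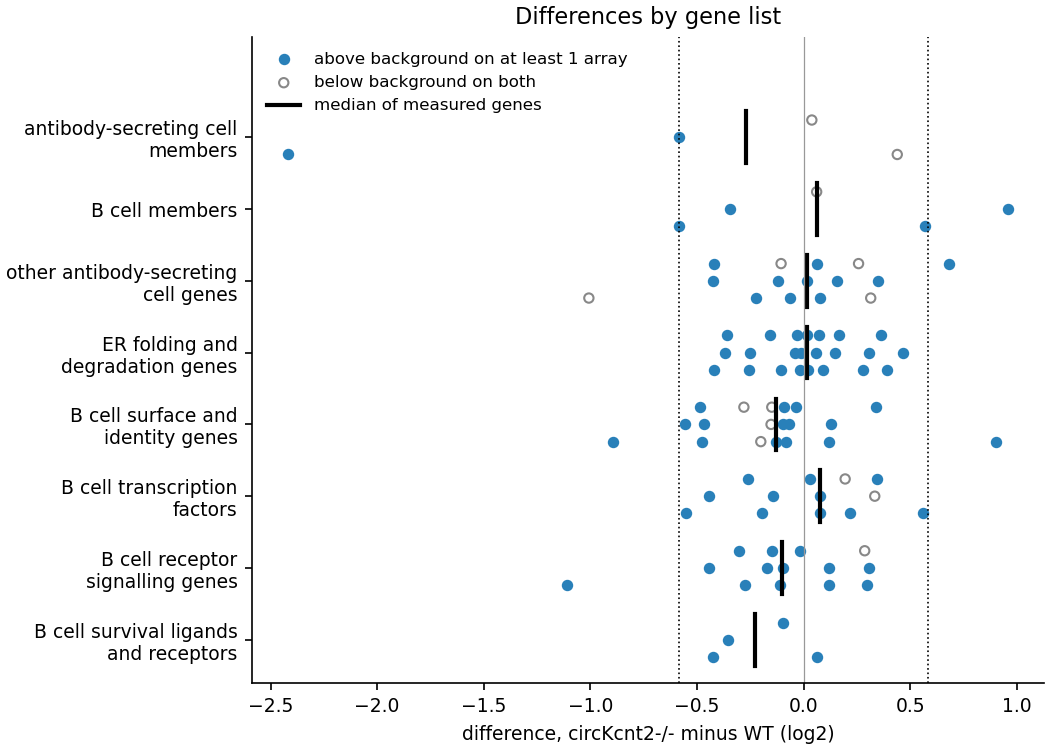
Differences between the circKcnt2-/- and WT arrays (log2, horizontal axis) of each measured gene in 8 lists, with filled points for genes above background on at least 1 array, open points for genes below it on both, a bar for the median of all measured genes and dotted 1.5-fold marks. Jchain at -2.42 stands alone on the left, and the medians of the lists lie between -0.27 and 0.08.

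Markers of other cells were measured beside these genes. Of 9 measured B cell markers, 6 were above background, and their summed linear level was 110 on the circKcnt2-/- array and 103 on the WT array. Of 8 markers of antibody-secreting cells, 6 were above background, with a sum of 220 on the circKcnt2-/- array and 313 on the WT array. Both lists contain members, and Jchain made up most of the gap in the second sum.

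J chain transcripts are also known from plasmacytoid dendritic cells in humans, so markers of dendritic cells are given next. For plasmacytoid dendritic cells, 8 of 10 measured markers were above background, 1 was at least 1.5-fold higher (Klk1) and 0 were lower, with a sum of 594 on the circKcnt2-/- array and 513 on the WT array. Ly6d, with 8.18 on the circKcnt2-/- array and 7.81 on the WT array, made up most of the gap in this sum. Siglech, the defining surface lectin of these cells, was below background on both (2.10 on the circKcnt2-/- array and 2.07 on the WT array). For conventional dendritic cells, 4 of 7 markers were above background and the sum was 125 on the circKcnt2-/- array and 178 on the WT array. In that list H2-Ab1, a class II antigen presentation gene that B cells share, was lower, with 5.63 on the circKcnt2-/- array and 6.54 on the WT array. It made up most of the gap in that sum. H2-Aa, the other class II gene measured in the list, had 5.67 on the circKcnt2-/- array and 5.86 on the WT array. Of the 7 measured markers, 5 had differences below 0 and 2 above 0. Of 7 macrophage and monocyte markers, 4 were above background on the circKcnt2-/- array and 7 on the WT array. Their sums were 84.4 on the circKcnt2-/- array and 96.6 on the WT array. The split in counts included readings close to the background level of 2.731. C1qa read 2.636 on the circKcnt2-/- array and 2.734 on the WT array, and Cd14 read 2.717 and 3.021. By measured value 2 of the markers (Adgre1 and Fcgr1) were at least 1.5-fold lower. Adgre1 was below background on the circKcnt2-/- array, so set against that level it was at least 1.24-fold lower.

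The label ILC3 was checked against its markers. Of 9 measured markers, 5 were above background, whereas Il23r, Ncr1, Ccr6 and Il1r1 were below it on both arrays. All 9 measured T cell markers were above background on both arrays, with a summed level of 5576 on the circKcnt2-/- array and 5088 on the WT array, and Cd3e alone reached 10.16 on the circKcnt2-/- array and 9.98 on the WT array. The 5 measured markers of immature lymphocytes, among them Rag2 and Dntt, were also above background on both arrays, with a summed level of 1464 on the circKcnt2-/- array and 1292 on the WT array. Against their label, both arrays thus held transcripts that mark other lymphocytes far above background. The part of any of these cells in the levels of Jchain, Cd79a, Cd79b or the other members was not tested.

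The differences were computed again under 5 other treatments of the values. Jchain stayed lower on the circKcnt2-/- array under each, from -2.55 with a loess correction to -1.41 with 32 added before the logarithm, which damps differences at low level. Cd79b stayed higher, between 0.38 and 0.96, and Cd79a between 0.21 and 0.57. Derl3 (-0.64 to -0.16), Pax5 (-0.64 to -0.11) and Blnk (-0.40 to -0.08) stayed lower. Prdm1, whose difference as deposited was 0.04, changed its sign in 1 of them.

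**Figure D4:**
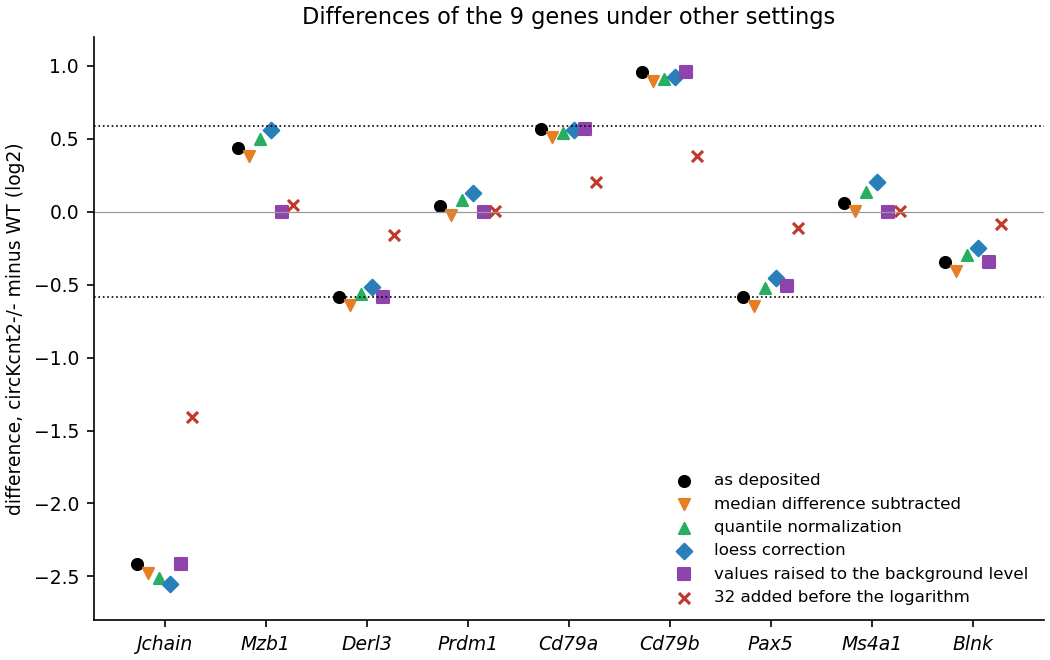
Differences between the circKcnt2-/- and WT arrays (log2, vertical axis) of the 9 genes as deposited and under 5 other treatments of the values, with dotted 1.5-fold marks. Jchain lies between -2.55 and -1.41 under all 6, and Derl3 and Pax5 pass the lower mark only where the median difference is subtracted.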

How the data were processed

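Expression was measured on 2 Affymetrix arrays, 1 of circKcnt2-/- and 1 of WT ILC3s, grouped by the genotype in the labels. The deposited log2 levels were made by the authors with RMA, which corrects background, quantile-normalizes and summarises probes by median polish, and the submitters' notes also name Affymetrix Power Tools. Versions are not given in the sources used here. A change common to all genes would be removed by such normalization. The array model is not settled, since the labels and the probe set identifiers point to different designs.

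Of 29129 probe sets, 19572 had 1 symbol in the platform annotation and an identifier in RefSeq names. Genes with more than 1 probe set were given the mean. The background level was the 95th percentile, over the receptor genes, of the higher of both values. Where a gene was below it on 1 array the fold is a bound, and on both no fold is given. Arrays have no read depth, so precision is limited by signal over background and by the number of arrays.

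The members and all gene lists were chosen with earlier results of these data known. Named were all members, up to 4 genes per list above background with the widest difference, and a few defining markers, while for the marker lists of other cells mainly counts and sums are given. Alternatives were no floor, a floor at the median level, subtraction of the median difference, quantile normalization, loess (span 0.3), addition of 32, the brightest probe set, values raised to background, 2-fold and the mean of a list. Floors from control probes and a list without Jchain were added after seeing the data. Immunoglobulin genes, although planned, were not analysed. Promoter motifs were searched on both strands. Computation used Python 3.11.15, numpy 2.4.6, pandas 2.3.3 and statsmodels 0.14.6, and the counting was tested on simulated data.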

Additional observations from a re-analysis of the deposited data

How the results depend on the processing

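The counts kept their values under most alternatives. With the median difference subtracted, which moves every gene by 0.06, 2 genes of antibody-secreting cells were at least 1.5-fold lower (Derl3 joined Jchain), as was 1 B cell gene (Pax5). The count of B cell genes at least 1.5-fold higher was 0 with 32 added, at 2-fold, and with either floor from control probes, which the level of Cd79b did not reach. The antibody-secreting cell difference was -0.63 as a mean in place of the median and 0.039 without Jchain, the second chosen after seeing the data. Of all genes past 1.5-fold, 59.5% were higher on the circKcnt2-/- array (958 higher and 652 lower). This share was 45.4% with the median difference subtracted (722 higher and 870 lower), 83.1% with 32 added (69 higher and 14 lower), and 86.3% and 86.5% with the control floors (264 higher and 42 lower, 199 higher and 31 lower). The lower counts also moved to 384 with a floor at the median level, 445 where low values were set at background, and 1044 with no floor. None of the 6 members above background changed sign. The immunoglobulin comparison and its alternatives were not run, as 0 such genes were named. No paired analysis was possible because each genotype had 1 array.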

Other observations

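Families of the members were set side by side, chosen after their values were seen. The 4 genes listed under the surrogate light chain (Igll1, Vpreb1, Vpreb2 and Vpreb3) had lower values on the circKcnt2-/- array. Their differences ran from -0.90 to -0.15, and 3 of them were above background. Vpreb3 was below background, with 2.19 on the circKcnt2-/- array and 2.34 on the WT array. Vpreb1 and Vpreb2 are near-identical copies, so these are not 4 separate readings, and nothing is read from the shared direction. Igll1, the constant part of the surrogate light chain, had 3.14 on the circKcnt2-/- array and 3.62 on the WT array. The Ms4a family, which shares a membrane-spanning fold with CD20, had 18 named genes, 7 of them above background. Ms4a6b (5.52 on the circKcnt2-/- array and 5.61 on the WT array) and Ms4a4b (5.50 on the circKcnt2-/- array and 5.47 on the WT array) differed little. Ms4a8a was below background at 2.15 on the circKcnt2-/- array and read 2.89 on the WT array. Of 6 Fc receptor-like genes 3 were above background, and the family's differences ran from -0.42 to 0.34.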
